A study of Homo sapiens with 30 samples.

Results

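Expression of 43 genes that cut, polyadenylate and terminate RNA polymerase II transcripts was compared in neuroblastoma cells after transfection of antisense oligonucleotides (ASOs). The genes were listed by name and role, all 43 were matched through their Ensembl identifiers in each of the 3 deposited tables, and all 43 passed the filter on low values in every line. They were set among 68608 genes that the tables list together. The main question was whether any of them was lower with ASO10, and with no other ASO, in both lines that received it.

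Nearly all messenger RNAs of animal cells are released by a cleavage step that reads a poly(A) signal, after which a tail is added and polymerase II is removed from the template. The cleavage and polyadenylation specificity factor (CPSF) recognises the signal and holds the endonuclease, the cleavage stimulation factor (CstF) binds U-rich or GU-rich sequence downstream, and cleavage factor Im (CFIm) binds UGUA elements upstream and is known for its influence on which of several poly(A) sites is used. Cleavage factor IIm (CFIIm), the exonuclease XRN2 and proteins that bind the carboxy-terminal domain (CTD) of polymerase II take part in termination. Integrator, a separate complex with its own endonuclease, ends small nuclear RNAs and many prematurely terminated transcripts.

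The cells were IMR32, NGP and SK-N-BE(2)c, 3 established neuroblastoma lines, transfected at 100 nM with Lipofectamine 2000. ASO1, ASO2 and ASO10 target the long non-coding RNA NESPR, and NCA is the negative control ASO, which stands in place of an untreated control: every group, NCA included, received an oligonucleotide and the transfection reagent. IMR32 had 4 libraries each of NCA, ASO1 and ASO2, and NGP and SK-N-BE(2)c had 3 libraries each of NCA, ASO2 and ASO10, so ASO10 was not measured in IMR32 and ASO1 only there. Each line is a single established culture, and the time from transfection to harvest is not given in the sources used here. Replicates are not said to come from separate cultures, so the p-values measure the spread between these libraries, which may be technical. In the NGP and SK-N-BE(2)c tables the column of replicate 1 of the control is named NCA, and those of replicates 2 and 3 are named NCA2. The titles place all 3 in NCA, and they were used as 1 group. Whether NCA2 stands for another oligonucleotide or batch is not stated.

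Values are deposited normalized counts, reads divided by a size factor for each library, and the libraries held between 9393587 and 15060356 reads. NGP and SK-N-BE(2)c were scaled together and can be set beside each other, whereas IMR32 was scaled apart. Of 7 adrenergic neuroblastoma markers, 6 in IMR32 and 7 in each of the other lines had a mean above 100 in every group, and no library exceeded a sum of 8.7 over 3 blood markers. In bulk RNA, fewer cells of a kind and less RNA per cell cannot be told apart. Calls were made in limma where the adjusted p (Benjamini-Hochberg, over all genes tested in the line) was under 0.05.

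NUDT21, the gene that met the main question, moved differently from its CFIm partners. The 250 bases upstream of the RefSeq start of all 3 CFIm genes are therefore shown (GRCh38.p14, 5′ to 3′ on the gene's strand). This choice was made after values had been seen. Capitals mark CCAAT and CGGAAG matches on either strand, that is CCAAT or ATTGG and CGGAAG or CTTCCG. The windows are chr16:56451333-56451582 on the minus strand for NUDT21, chr12:69239319-69239568 on the plus strand for CPSF6 and chr11:61429976-61430225 on the minus strand for CPSF7.
NUDT21: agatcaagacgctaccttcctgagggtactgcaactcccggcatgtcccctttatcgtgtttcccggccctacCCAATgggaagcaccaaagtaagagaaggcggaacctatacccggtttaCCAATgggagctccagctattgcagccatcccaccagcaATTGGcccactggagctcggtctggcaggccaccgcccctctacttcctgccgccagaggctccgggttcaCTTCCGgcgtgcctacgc
CPSF6: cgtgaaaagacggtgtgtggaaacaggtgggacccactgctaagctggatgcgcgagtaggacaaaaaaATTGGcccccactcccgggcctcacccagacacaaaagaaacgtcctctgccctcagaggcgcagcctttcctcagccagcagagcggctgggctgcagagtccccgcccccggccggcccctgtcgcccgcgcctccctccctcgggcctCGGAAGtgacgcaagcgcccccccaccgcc
CPSF7: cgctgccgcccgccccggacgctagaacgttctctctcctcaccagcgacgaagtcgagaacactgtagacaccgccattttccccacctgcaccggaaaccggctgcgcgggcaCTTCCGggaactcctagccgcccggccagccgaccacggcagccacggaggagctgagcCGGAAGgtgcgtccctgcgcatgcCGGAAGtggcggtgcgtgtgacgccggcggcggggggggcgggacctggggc
CCAAT was matched 3 times upstream of NUDT21, 1 time upstream of CPSF6 and 0 times upstream of CPSF7, and CGGAAG 1, 1 and 3 times. Over 27305 windows of this length in the table, 33.0% held CCAAT and 16.8% held CGGAAG. Among the 37 listed genes with a window, 16 (43.2%) held CCAAT and 20 (54.1%) held CGGAAG. These are matches of letters, not measured sites. The 27305 windows were not matched to the list for expression, whereas all 43 listed genes passed the filter on low values.

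NUDT21, the CFIm subunit that binds UGUA, was the 1 of 43 genes that was lower with ASO10 in both lines and with no other ASO. To count, a gene had to be called lower with ASO10 than with NCA and than with ASO2 in both lines, and not called lower with ASO1 or ASO2 in any line. Over the 11594 genes tested in all lines, 740 (6.38%) did so. Of these, 66 genes (0.569% of the 11594), NUDT21 among them, were lower by 1 or more on the log2 scale in both lines. The count of 1 and its name were the same in all 40 alternative settings. The 12 of these that left out an IMR32 library did not change the ASO10 fits, so they bear only on the IMR32 condition.

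In NGP the normalized count of NUDT21 was 5265, 4927 and 5734 with NCA, 6485, 6243 and 6261 with ASO2, and 2113, 1936 and 2274 with ASO10. All 3 ASO10 libraries lay below every other NGP library, and all 3 ASO2 libraries lay above those of NCA. The log2 fold change of ASO10 against NCA was -1.33 (SE 0.06, adjusted p = 2.57e-15), and 1.48% of the 14440 genes tested fell as far or further.

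SK-N-BE(2)c counts of NUDT21 were 2511, 2550 and 2639 with NCA, 3373, 3335 and 3432 with ASO2, and 1224, 894 and 1038 with ASO10. The 3 groups were apart in the same order as in NGP. ASO10 against NCA gave -1.30 (SE 0.07, adjusted p = 1.76e-14), with 1.76% of 13556 genes as low or lower, and the difference between the lines, 0.04 (SE 0.11, adjusted p = 0.866), did not pass the test. Over all settings the NGP log2 fold change ran from -1.39 to -1.27, and that of SK-N-BE(2)c from -1.41 to -1.19.

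With ASO2 the same gene was higher than with NCA, by a log2 fold change of 0.26 in NGP (SE 0.06, adjusted p = 0.000609) and 0.40 in SK-N-BE(2)c (SE 0.07, adjusted p = 2.31e-05). Set directly against ASO2, ASO10 gave -1.59 in NGP (adjusted p = 5.11e-17) and -1.69 in SK-N-BE(2)c (adjusted p = 2.34e-17). NUDT21 counts in IMR32 were 598, 604, 539 and 531 with NCA, 679, 546, 565 and 612 with ASO1, and 789, 679, 583 and 625 with ASO2. These groups overlapped, and neither ASO lowered the gene: ASO1 gave 0.08 (adjusted p = 0.537) and ASO2 0.23 (adjusted p = 0.0403). The IMR32 call for ASO2 was lost without ASO2 replicate 1 (0.15, adjusted p = 0.154) or replicate 2 (adjusted p = 0.0926), without NCA replicate 3 (adjusted p = 0.107) or 4 (adjusted p = 0.118), and with no filter (adjusted p = 0.0541). The summed level of the 7 adrenergic markers was also lower with ASO10, at 20934 to 21639 in NGP against 29391 to 30474 with NCA, and at 13623 to 14623 in SK-N-BE(2)c against 17765 to 19895. It was lower than with NCA with ASO2 too, where NUDT21 was higher, at 25597 to 26342 (NGP) and 15903 to 17452 (SK-N-BE(2)c). The sum of 6 mesenchymal-type markers was lower with ASO10, at 1281 to 1383 against 1522 to 1620 with NCA (NGP) and 869 to 925 against 1212 to 1382 (SK-N-BE(2)c). With ASO2 it was 1899 to 1983 and 1363 to 1394. In each of these lines 3 of the 6 had a mean under 10 in every group, so few genes make up the sum. SNAI2 went the other way in NGP, at 335, 286 and 372 with ASO10 against 289, 234 and 285 with NCA. In SK-N-BE(2)c most of the sum was FOSL2, at 689, 755 and 746 with ASO10 against 1158, 1078 and 1008 with NCA. The part of these markers in the result was not tested.

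The genes around NUDT21 were measured in the same libraries. OGFOD1 lies head to head with it. The nearest RefSeq starts of the pair are 192 bases apart, and their promoter windows, of 300 bases here, share 291 bases. The other RefSeq starts of OGFOD1 are 222 and 752 bases away, and their windows share 279 and 0 bases. OGFOD1 was not called lower with ASO10 than with NCA in either line. Its mean normalized count was 1590 ± 65.7 with NCA, 2159 ± 34.6 with ASO2 and 1810 ± 121 with ASO10 in NGP (SD, n = 3). Means in SK-N-BE(2)c were 1328 ± 42.3, 1835 ± 130 and 1360 ± 47.6 in that order (SD, n = 3). Against NCA, ASO10 gave a log2 fold change of 0.19 in NGP (adjusted p = 0.00984) and 0.03 in SK-N-BE(2)c (adjusted p = 0.659), while ASO2 raised the gene in both (0.44 and 0.46). Set against ASO2, ASO10 was lower for OGFOD1 too, with -0.26 in NGP (adjusted p = 0.000576) and -0.43 in the other line (adjusted p = 6.39e-07). The NGP call for ASO10 was lost without ASO10 replicate 1 (0.14, adjusted p = 0.0907). The other neighbours measured, BBS2 and GNAO1, fell with ASO10 in both lines, by 0.44 and 0.37 for BBS2 (adjusted p = 0.00101 and 0.0113) and by 0.81 and 0.57 for GNAO1 (adjusted p = 1.08e-10 and 3.56e-09), NGP first. Both also fell with ASO2, by 0.60 and 0.45 for BBS2 and by 0.43 and 0.55 for GNAO1. The SK-N-BE(2)c ASO10 call of BBS2 was lost without ASO10 replicate 1 (adjusted p = 0.0537) or NCA replicate 1 (adjusted p = 0.0685). These neighbours were chosen for their position after values had been seen.

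**Figure D1:**
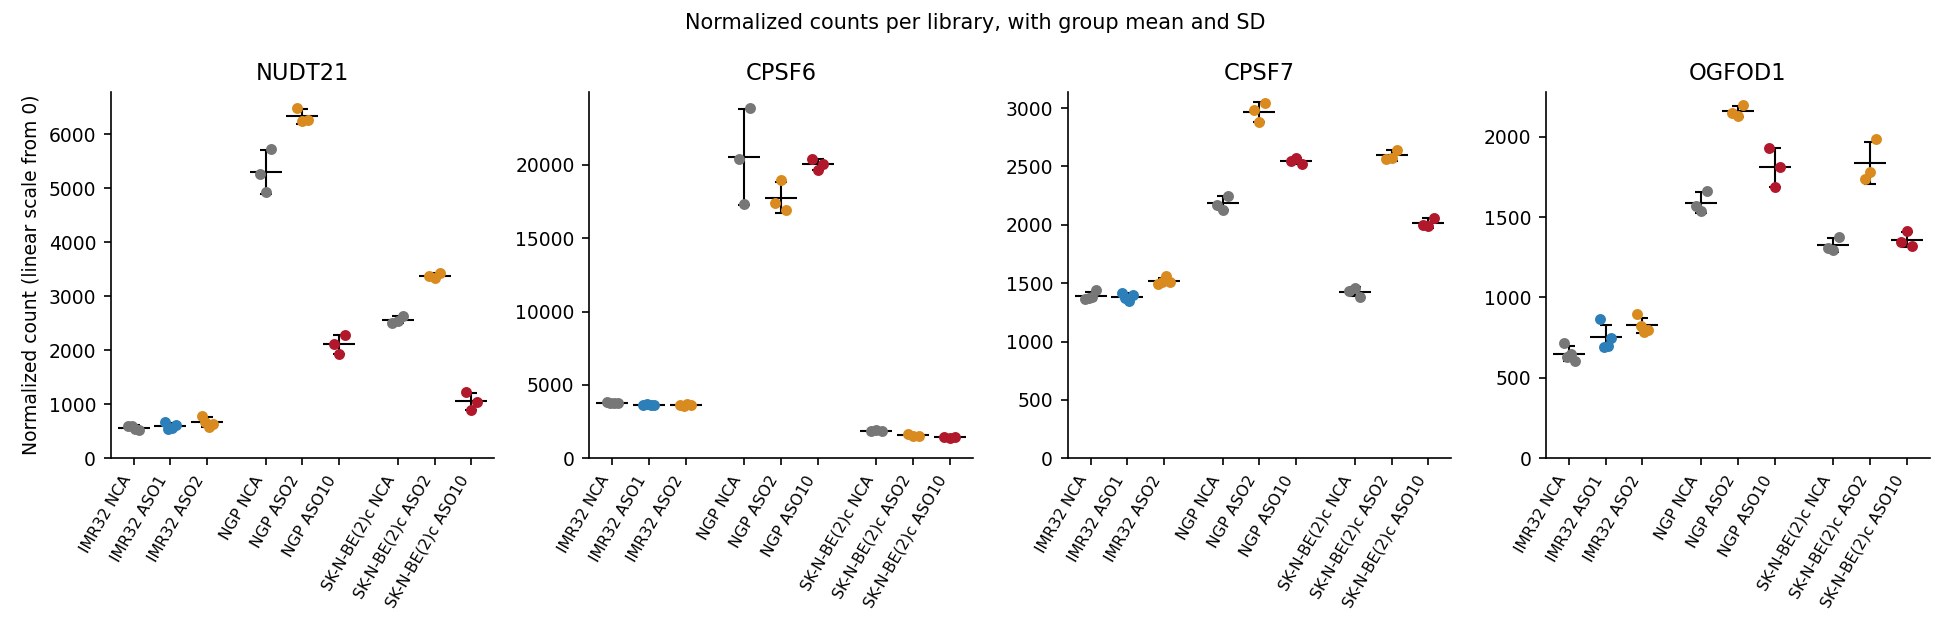
Normalized count of each library (points), with group mean (bar) and SD (whiskers), for the 3 CFIm genes and OGFOD1, in 3 lines by ASO; IMR32 was scaled apart. The ASO10 libraries of NUDT21 lie between 1936 and 2274 in NGP and between 894 and 1224 in SK-N-BE(2)c, below all other libraries of their line, and those of OGFOD1 do not.

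CPSF7, which encodes a larger CFIm subunit, rose with both ASOs. Its counts in NGP were 2173, 2130 and 2248 with NCA, 2986, 2877 and 3044 with ASO2, and 2548, 2576 and 2525 with ASO10. Counts of CPSF7 in SK-N-BE(2)c were 1430, 1463 and 1384 with NCA, 2563, 2575 and 2644 with ASO2, and 1996, 1992 and 2062 with ASO10. The 3 groups did not overlap in either line, and ASO10 lay between NCA and ASO2 in both. The log2 fold changes against NCA were 0.44 (ASO2, adjusted p = 5.58e-08) and 0.22 (ASO10, adjusted p = 0.000629) in NGP, and 0.86 (adjusted p = 7.53e-14) and 0.50 (adjusted p = 7.26e-09) in SK-N-BE(2)c. In IMR32, ASO1 gave -0.01 (adjusted p = 0.924) and ASO2 0.13 (adjusted p = 0.0274). That last call was lost under 7 of 18 alternatives. Among these was leaving out any 1 of 5 libraries (ASO2 replicates 2 and 3, NCA replicates 1, 2 and 3, adjusted p = 0.0515 to 0.0742).

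CPSF6, the other large subunit, moved less. With ASO2 it gave -0.20 in NGP (adjusted p = 0.0159) and -0.25 in SK-N-BE(2)c (adjusted p = 0.000427). With ASO10 it gave -0.02 in NGP (adjusted p = 0.799), where the NCA libraries spanned 17329 to 23839, and -0.39 in SK-N-BE(2)c (adjusted p = 1.72e-06). The NGP call for ASO2 was lost under 5 of 16 alternatives. Among these were leaving out ASO2 replicate 1 (adjusted p = 0.0598), ASO2 replicate 3 (adjusted p = 0.0823) or NCA replicate 3, the highest library (-0.08, adjusted p = 0.169), and DESeq2 (adjusted p = 0.111). The CFIm genes gave no common direction with ASO10: NUDT21 fell, CPSF7 rose, and CPSF6 passed the test in 1 of the 2 lines.

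Over the whole list, calls were frequent in NGP and SK-N-BE(2)c, as they were over all genes. With ASO10 against NCA, 10 of 43 genes were lower (23.3%) and 13 higher (30.2%) in NGP, where 27.6% and 26.8% of all genes were called. The SK-N-BE(2)c counts were 16 lower (37.2%) and 15 higher (34.9%), beside 31.1% and 27.8% of all genes. With ASO2, 16 were lower (37.2%) and 17 higher (39.5%) in NGP, beside 28.1% and 30.6%, and 18 lower (41.9%) and 19 higher (44.2%) in SK-N-BE(2)c, beside 33.4% and 33.6%. In either direction the list was called in 53.5% with ASO10 in NGP, beside 54.4% of all genes. Its share was above that of all genes in the other 3 comparisons, at 72.1% beside 58.9% with ASO10 in SK-N-BE(2)c, and with ASO2 at 76.7% beside 58.7% (NGP) and 86.0% beside 67.0% (SK-N-BE(2)c). Among genes with a mean of 50 or more, which all 43 reach, the shares over all genes were higher: 58.8% and 63.9% with ASO10, and 66.5% and 74.3% with ASO2, NGP first. The list's median log2 fold change stayed between 0.02 and 0.05 in these 4 comparisons, beside -0.03 to 0.01 over all genes.

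Scaling every SK-N-BE(2)c library to the same total turned the ASO2 split to 20 lower and 12 higher. That scaling moved the median of all genes there from -0.02 to -0.15. In IMR32 6 genes were lower (14.0%) and 9 higher (20.9%) with ASO1, beside 14.4% and 13.6% of all genes, and 4 lower (9.3%) and 9 higher (20.9%) with ASO2, beside 14.8% and 17.6%. Scaled to the same total, the IMR32 split with ASO2 was 7 lower and 8 higher. Changes in IMR32 were small, from a log2 fold change of -0.36 (CPSF2 with ASO1) to 0.36 (PAPOLG with ASO2).

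In both lines together, 9 genes fell with ASO10 (20.9%, beside 20.5% of 12637 genes) and 10 rose (23.3%, beside 19.1%). Those that fell were NUDT21, CSTF1, CSTF2, CSTF2T, CSTF3, CPSF3, XRN2, INTS7 and INTS10. Those that rose were CPSF7, WDR33, SYMPK, PAPOLG, RBBP6, SSU72, WDR82, INTS2, INTS3 and INTS11. With ASO2, 15 fell in both lines (34.9%, beside 24.0%) and 14 rose (32.6%, beside 25.4%). The ASO10 and ASO2 comparisons of a line share its NCA libraries.

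ASO10 was also set directly against ASO2. Of the 43 genes, 14 were lower and 17 higher with ASO10 in NGP (30.6% and 28.0% of all genes), and the same numbers in SK-N-BE(2)c (34.6% and 30.8%). Both lines gave 11 genes lower (25.6%, beside 26.3%) and 14 higher (32.6%, beside 22.8%). Scaled to the same total, the SK-N-BE(2)c split was 11 lower and 21 higher. Of the genes changed with ASO2 and not in that direction with ASO10, 5 were lower (INTS4, SCAF8, SSU72, TTF2 and ZC3H4, 11.6%, beside 9.02% of all genes). Another 5 were higher (CLP1, FIP1L1, INTS13, NUDT21 and PCF11, 11.6%, beside 9.51%). Scaled to the same total, FIP1L1 lost its ASO2 call in NGP (0.11, adjusted p = 0.119) and SK-N-BE(2)c (0.13, adjusted p = 0.104). The rule for these genes asks for a call against NCA and against ASO10 in both lines, and none in that direction with ASO10. It does not ask about IMR32, where INTS4 and TTF2 were also called lower with ASO1, and CLP1 and INTS13 higher. The ASO1 calls of TTF2 and CLP1 were lost under 8 and 10 of 18 alternatives, and those of INTS4 and INTS13 under 0. In IMR32 ASO1 against ASO2 gave 5 genes lower and 3 higher (12.8% and 9.17% of all genes), and 4 lower and 9 higher when scaled to the same total.

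**Figure D2:**
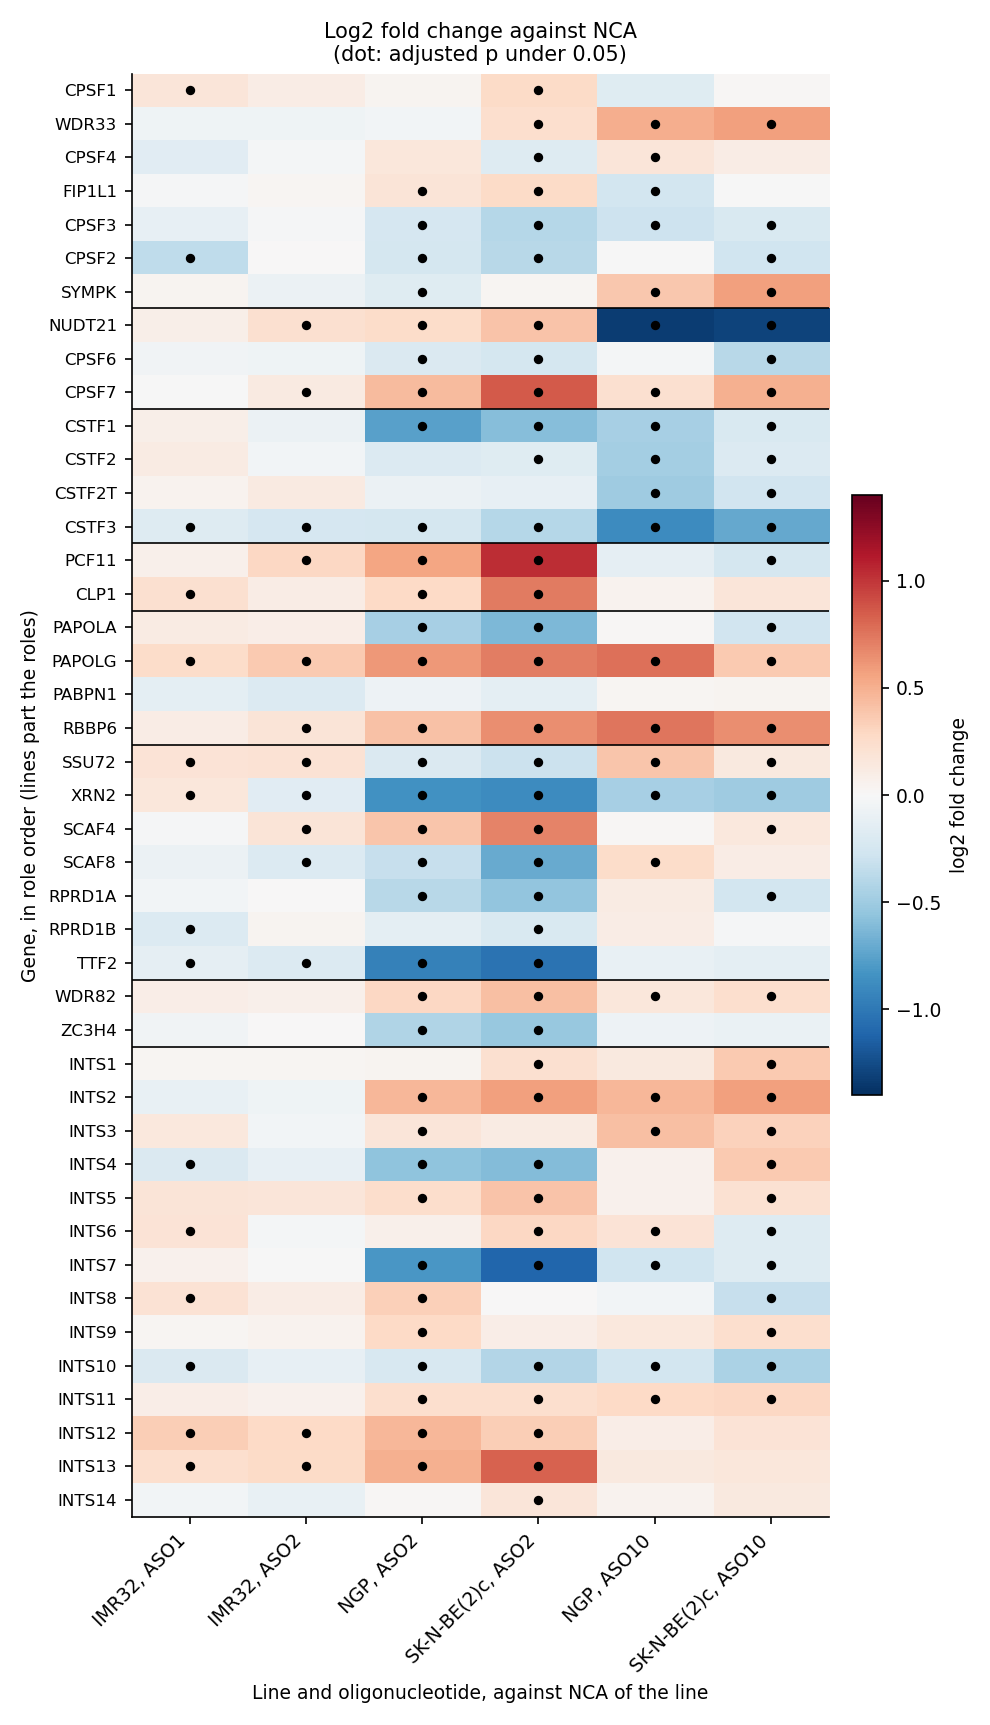
Log2 fold change against NCA (colour) of the 43 genes in rows, ordered by role, in 6 comparisons of line and ASO; a black dot marks an adjusted p under 0.05. NUDT21 is the darkest blue cell of both ASO10 columns (-1.33 and -1.30) and red in both ASO2 columns of NGP and SK-N-BE(2)c (0.26 and 0.40).

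All 4 CstF genes fell with ASO10 in both lines, as did 20.5% of all genes, and the size of the fall differed between them. CSTF3 encodes the scaffold subunit on which CstF dimerises. Its counts were 1081, 1033 and 1142 with NCA, 930, 858 and 950 with ASO2, and 563, 544 and 659 with ASO10 in NGP. SK-N-BE(2)c gave 600, 618 and 652, then 452, 479 and 489, then 397, 368 and 373. The 3 groups were apart in both lines, with ASO10 lowest. The log2 fold change with ASO10 was -0.89 in NGP (SE 0.08, adjusted p = 4.18e-10) and -0.71 in SK-N-BE(2)c (SE 0.08, adjusted p = 1e-08). CSTF3 was also lower with every other ASO: -0.25 and -0.40 with ASO2 in these lines, and -0.18 and -0.24 with ASO1 and ASO2 in IMR32 (adjusted p = 6.91e-05 to 0.00995).

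CSTF2 and CSTF2T encode paralogous subunits that bind the downstream sequence element, so reads of the pair may be shared where the copies are alike. CSTF2T counts were 1150, 1086 and 1062 with NCA and 767, 803 and 759 with ASO10 in NGP, and 782, 714 and 760 against 620, 636 and 620 in SK-N-BE(2)c. The ASO10 libraries lay below NCA in both lines. CSTF2T gave -0.50 (adjusted p = 6.31e-07) and -0.26 (adjusted p = 0.00256) with ASO10, and with ASO2 -0.08 (adjusted p = 0.289) and -0.12 (adjusted p = 0.151). It met every condition of the ASO10 question but 1, since ASO10 against ASO2 in SK-N-BE(2)c gave -0.15 (adjusted p = 0.0762). CSTF2 gave -0.47 (adjusted p = 3.38e-05) and -0.19 (adjusted p = 0.023) with ASO10, and -0.19 (adjusted p = 0.0552) and -0.17 (adjusted p = 0.0424) with ASO2.

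CSTF1, a WD-repeat subunit, fell further with ASO2 than with ASO10. In NGP it gave -0.76 with ASO2 (adjusted p = 4.16e-07) and -0.46 with ASO10 (adjusted p = 0.000356), and ASO10 against ASO2 gave 0.30 (adjusted p = 0.0118). The same values in SK-N-BE(2)c were -0.60 (adjusted p = 1.42e-07), -0.21 (adjusted p = 0.0224) and 0.39 (adjusted p = 9.97e-05). The SK-N-BE(2)c ASO10 calls of CSTF1 and CSTF2 were the weak ones of the group. In DESeq2 their adjusted p was 0.0631 for CSTF1 and 0.0813 for CSTF2. CSTF1 lost the call without ASO10 replicate 3 (adjusted p = 0.0931), NCA replicate 2 (adjusted p = 0.0776) or NCA replicate 3 (adjusted p = 0.058), and CSTF2 without ASO10 replicate 2 (adjusted p = 0.0701) or NCA replicate 3 (adjusted p = 0.108). The ASO2 call of CSTF2 was lost under 7 of 16 alternatives. In IMR32, CSTF1, CSTF2 and CSTF2T passed the test with neither ASO, at log2 fold changes from -0.08 to 0.13.

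**Figure D3:**
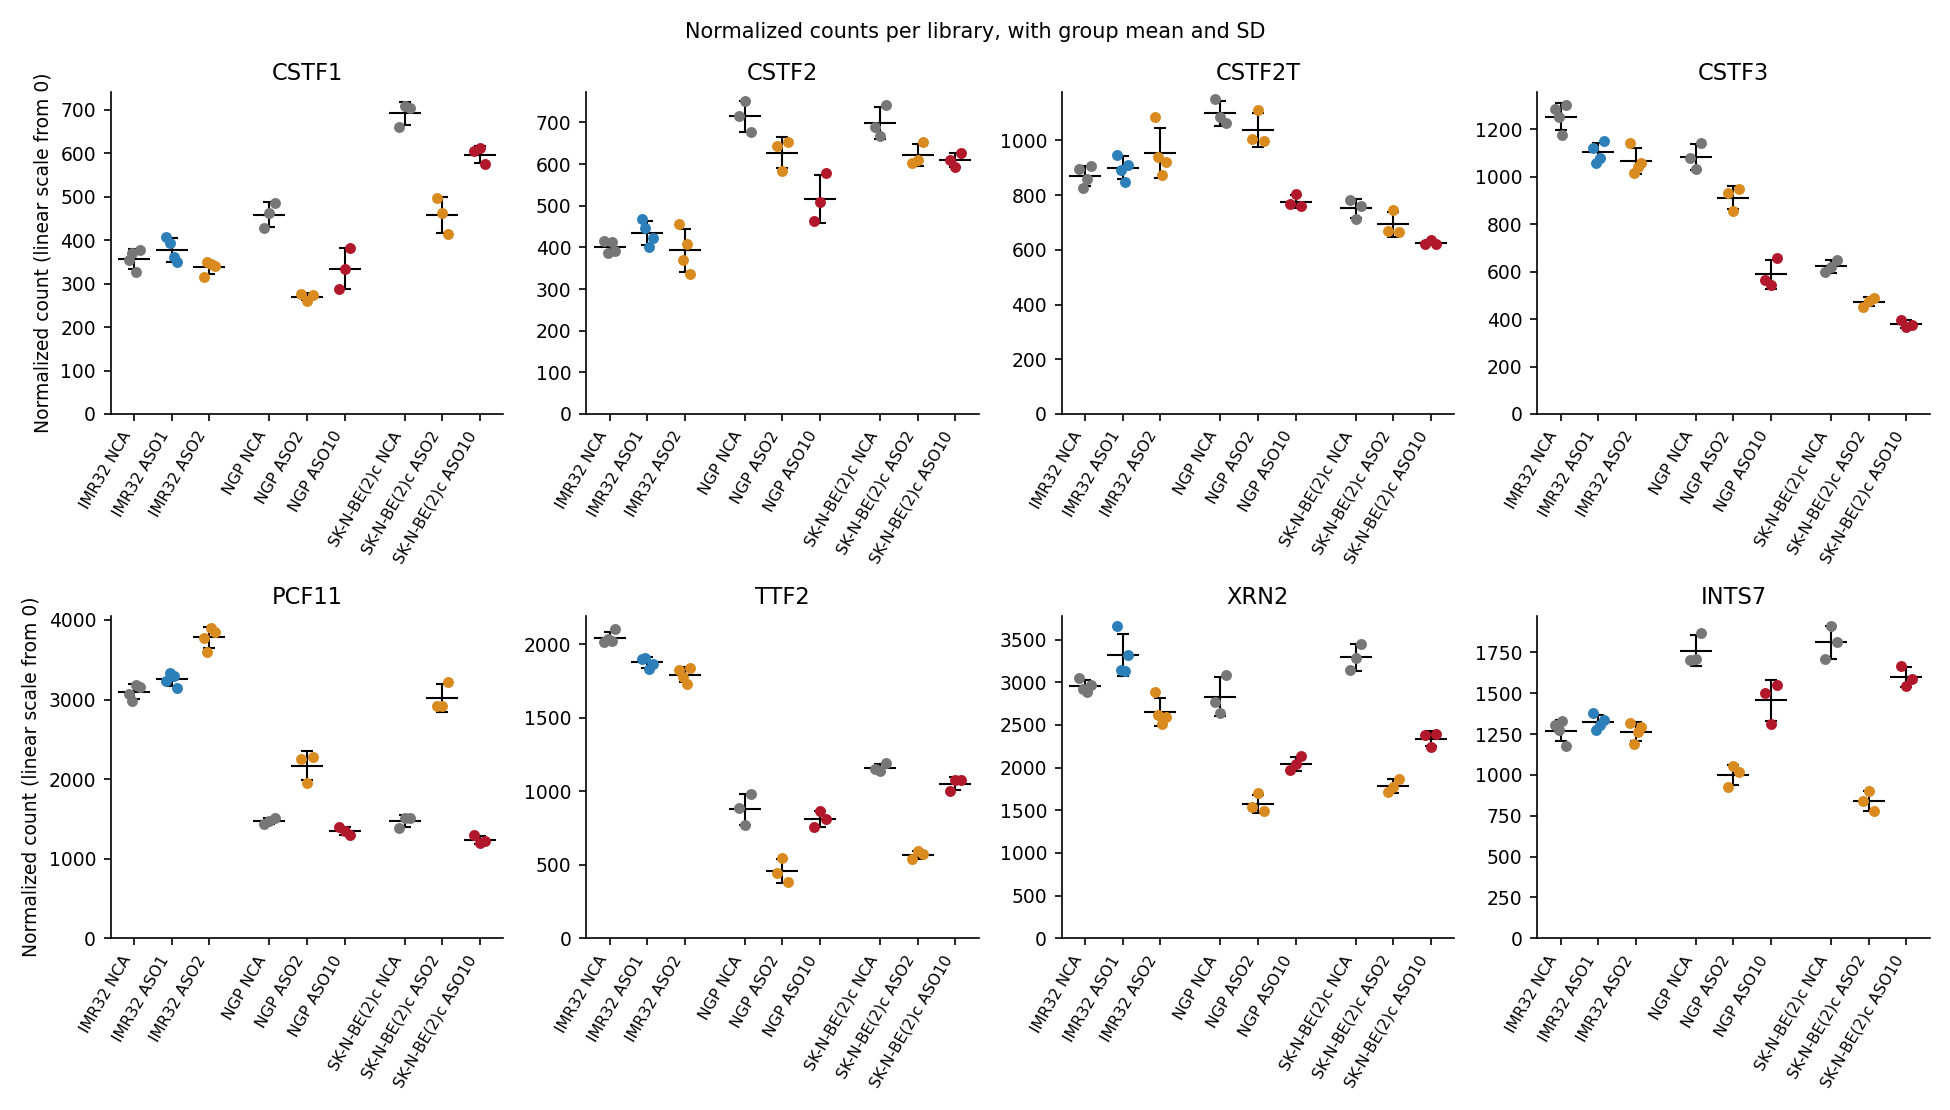
Normalized count of each library (points), with group mean (bar) and SD (whiskers), for the 4 CstF genes and for PCF11, TTF2, XRN2 and INTS7, in 3 lines by ASO; IMR32 was scaled apart. ASO10 libraries of CSTF3 lie between 368 and 659 and below all others of their line, whereas TTF2, XRN2 and INTS7 are lowest with ASO2 in NGP and SK-N-BE(2)c.

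Among the 7 genes of the CPSF core, ASO10 raised the scaffold gene SYMPK and WDR33, whose product contacts the poly(A) signal. SYMPK counts with NCA, ASO2 and ASO10 were 2559, 2654 and 2414, then 2224, 2282 and 2260, then 3334, 3380 and 3156 in NGP. Its SK-N-BE(2)c counts were 2267, 2286 and 2081, then 2361, 2186 and 2205, then 3061, 3543 and 3254. The ASO10 libraries were the highest in both lines. SYMPK gave 0.37 in NGP (adjusted p = 1.74e-06) and 0.57 in SK-N-BE(2)c (adjusted p = 3.74e-09) with ASO10, and with ASO2 -0.17 (adjusted p = 0.00728) and 0.03 (adjusted p = 0.716). It was the 1 listed gene higher with ASO10 only, by the mirror of the rule above, which 4.49% of 11594 genes met.

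WDR33 rose with ASO10 by 0.51 in NGP (adjusted p = 5.11e-08) and 0.57 in SK-N-BE(2)c (adjusted p = 2.18e-09). With ASO2 it gave -0.04 (adjusted p = 0.546) and 0.24 (adjusted p = 0.000731), the latter lost when libraries were scaled to the same total (0.10, adjusted p = 0.128). In the annotation 25.6% of its exon length overlaps SFT2D3 on the opposite strand. CPSF3, the endonuclease, fell with ASO10 by 0.29 in NGP (adjusted p = 0.000417) and by 0.21 in SK-N-BE(2)c (adjusted p = 0.00927), and with ASO2 by 0.24 (adjusted p = 0.00239) and 0.40 (adjusted p = 6.56e-06). Without NCA replicate 3 the SK-N-BE(2)c ASO10 value of CPSF3 was -0.17 (adjusted p = 0.0513). The remaining core genes, CPSF1, CPSF2, CPSF4 and FIP1L1, gave log2 fold changes from -0.28 to 0.17 with ASO10 and from -0.39 to 0.27 with ASO2 in these lines.

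PCF11 and CLP1, the CFIIm pair, rose with ASO2 and did not rise with ASO10. PCF11 binds the polymerase II CTD and promotes termination. Its counts with NCA, ASO2 and ASO10 were 1435, 1473 and 1513, then 2259, 1957 and 2283, then 1403, 1348 and 1304 in NGP. For SK-N-BE(2)c they were 1385, 1509 and 1517, then 2919, 2916 and 3226, then 1297, 1199 and 1218. The ASO2 libraries stood above all others in both lines. PCF11 rose with ASO2 by 0.55 in NGP (SE 0.06, adjusted p = 4.65e-08) and 1.04 in SK-N-BE(2)c (SE 0.06, adjusted p = 1.83e-14), a difference between the lines of 0.49 (SE 0.09, adjusted p = 0.000491).

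With ASO10 PCF11 gave -0.12 in NGP (adjusted p = 0.096) and fell in SK-N-BE(2)c (-0.25, adjusted p = 0.000925). ASO10 against ASO2 gave -0.68 and -1.29 (adjusted p = 1.21e-09 and 1.53e-16). In IMR32 it rose with ASO2 (0.29, adjusted p = 4.85e-05) and gave 0.07 with ASO1 (adjusted p = 0.248). CLP1, a polynucleotide kinase, rose with ASO2 by 0.28 in NGP (adjusted p = 0.00939) and 0.72 in SK-N-BE(2)c (adjusted p = 2.2e-06), and gave 0.05 and 0.17 with ASO10 (adjusted p = 0.679 and 0.195). Without ASO2 replicate 3 its NGP value was 0.23 (adjusted p = 0.065).

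Of the 4 genes for poly(A) polymerases and their partners, PAPOLG and RBBP6 rose with each ASO in NGP and SK-N-BE(2)c. PAPOLG, a nuclear poly(A) polymerase, had counts of 484, 394 and 485 with NCA, 699, 687 and 681 with ASO2, and 782, 750 and 793 with ASO10 in NGP. In SK-N-BE(2)c they were 196, 200 and 237, then 325, 351 and 359, then 292, 255 and 268. No NCA library reached a library of either ASO. PAPOLG rose by 0.61 and 0.71 with ASO2 and by 0.77 and 0.37 with ASO10 (adjusted p = 1.16e-08 to 0.00312), and in IMR32 by 0.25 with ASO1 (adjusted p = 0.0033) and 0.36 with ASO2 (adjusted p = 0.000138).

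RBBP6, which activates cleavage, rose by 0.41 and 0.65 with ASO2 and by 0.75 and 0.65 with ASO10, NGP first (adjusted p = 1.79e-11 to 5.48e-07). In IMR32 it gave 0.10 with ASO1 (adjusted p = 0.141) and 0.19 with ASO2 (adjusted p = 0.00839). PAPOLA, the main poly(A) polymerase, fell with ASO2 in both lines (-0.47 and -0.62), and with ASO10 it gave 0.02 in NGP (adjusted p = 0.781) and -0.27 in SK-N-BE(2)c (adjusted p = 0.000111). PABPN1, which coats the tail, passed the test in none of the 6 comparisons against NCA, with values from -0.19 to 0.04.

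In the group of CTD-binding and termination genes, TTF2 and XRN2 fell most, and both fell further with ASO2. TTF2, an ATPase that releases transcripts, had counts of 885, 768 and 979 with NCA, 441, 544 and 384 with ASO2, and 755, 863 and 814 with ASO10 in NGP. In SK-N-BE(2)c they were 1151, 1134 and 1188, then 536, 593 and 570, then 1002, 1077 and 1076. The ASO2 libraries were apart below both other groups. TTF2 gave -0.95 in NGP (SE 0.10, adjusted p = 1.44e-08) and -1.03 in SK-N-BE(2)c (SE 0.07, adjusted p = 1.37e-13) with ASO2, and -0.11 (adjusted p = 0.374) and -0.14 (adjusted p = 0.0743) with ASO10. In IMR32 it fell with ASO2 by 0.19 (adjusted p = 0.0017) and with ASO1 by 0.12 (adjusted p = 0.0306). The latter call was lost under 8 of 18 alternatives, among them leaving out ASO1 replicate 3 or 4, or NCA replicate 2, 3 or 4 (adjusted p = 0.0541 to 0.0976).

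XRN2, the exonuclease that degrades RNA behind the cleavage site, had counts of 2773, 2641 and 3088 with NCA, 1539, 1697 and 1490 with ASO2, and 1970, 2038 and 2134 with ASO10 in NGP. In SK-N-BE(2)c they were 3140, 3286 and 3453, then 1715, 1774 and 1873, then 2381, 2239 and 2398. The order NCA, ASO10, ASO2 held without overlap in both lines. The log2 fold changes were -0.85 and -0.88 with ASO2 and -0.47 and -0.49 with ASO10 (adjusted p = 1.09e-13 to 9e-07). In IMR32 XRN2 went in opposite directions, 0.16 with ASO1 (adjusted p = 0.0276) and -0.16 with ASO2 (adjusted p = 0.0262), and each of these calls was lost without some single libraries (5 for ASO1, 6 for ASO2).

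SSU72, a CTD phosphatase, fell with ASO2 by 0.21 in NGP (adjusted p = 0.00728) and 0.30 in SK-N-BE(2)c (adjusted p = 6.31e-05). It rose with ASO10 by 0.39 (adjusted p = 1.27e-05) and 0.14 (adjusted p = 0.042), and the SK-N-BE(2)c call was lost without ASO10 replicate 1 (adjusted p = 0.0871) or 3 (adjusted p = 0.152) or NCA replicate 2 (0.08, adjusted p = 0.313), and with no filter, only the 2 groups fitted or the same total (adjusted p = 0.0508 to 0.0918). SCAF4 and SCAF8, paralogues that prevent early use of poly(A) sites, parted with ASO2: SCAF4 rose by 0.39 and 0.70, and SCAF8 fell by 0.33 and 0.70 (adjusted p = 5.89e-12 to 0.00047). With ASO10 SCAF4 gave 0.02 and 0.15, and SCAF8 0.25 and 0.10. In IMR32 with ASO2 the pair parted the same way, at 0.18 and -0.19 (adjusted p = 0.00261 and 0.00154). RPRD1A and RPRD1B, CTD-binding paralogues, gave -0.55 to -0.14 with ASO2 and -0.26 to 0.11 with ASO10.

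The restrictor complex, which terminates unproductive transcription, joins ZC3H4 and WDR82. Its 2 genes parted with ASO2. WDR82 rose by 0.29 in NGP (adjusted p = 1.19e-05) and 0.42 in SK-N-BE(2)c (adjusted p = 1.1e-07), and ZC3H4 fell by 0.42 (adjusted p = 1.13e-05) and 0.53 (adjusted p = 7.8e-07). With ASO10 WDR82 rose by 0.16 and 0.24 (adjusted p = 0.00567 and 0.000428), and ZC3H4 gave -0.07 and -0.09 (adjusted p = 0.393 and 0.313). ZC3H4 counts with ASO2 were 1013, 1025 and 953 in NGP and 830, 746 and 722 in SK-N-BE(2)c, below 1310, 1451 and 1243 and below 1230, 1119 and 971 with NCA.

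The 14 Integrator genes moved in both directions. With ASO10, 2 were lower and 4 higher in NGP, beside 27.6% and 26.8% of all genes, and 4 were lower and 7 higher in SK-N-BE(2)c, beside 31.1% and 27.8%. With ASO2, 3 were lower and 8 higher in each line, beside 28.1% and 30.6% of all genes in NGP and 33.4% and 33.6% in SK-N-BE(2)c. Lower with ASO2 in both lines were INTS4, INTS7 and INTS10.

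INTS7 changed most. Its counts were 1701, 1707 and 1870 with NCA, 928, 1053 and 1016 with ASO2, and 1503, 1314 and 1549 with ASO10 in NGP, and 1707, 1912 and 1816, then 839, 900 and 777, then 1664, 1541 and 1587 in SK-N-BE(2)c. The ASO2 libraries were lowest and the ASO10 libraries were between. INTS7 fell with ASO2 by 0.82 (SE 0.07, adjusted p = 3.07e-10) and 1.11 (SE 0.07, adjusted p = 1.97e-14), and with ASO10 by 0.28 (adjusted p = 0.00159) and 0.18 (adjusted p = 0.0191). The SK-N-BE(2)c ASO10 call was lost in DESeq2 (adjusted p = 0.0608) and without ASO10 replicate 2 (adjusted p = 0.0747), ASO10 replicate 3 (adjusted p = 0.059) or NCA replicate 2 (adjusted p = 0.114).

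INTS4, which holds the INTS9 and INTS11 nuclease pair, went in different directions with the ASOs. With ASO2 it fell by 0.56 in NGP (adjusted p = 8.32e-06) and 0.61 in SK-N-BE(2)c (adjusted p = 7.82e-07). With ASO10 it gave 0.06 (adjusted p = 0.607) and rose by 0.37 (adjusted p = 0.000809), and ASO10 against ASO2 gave 0.62 and 0.98 (adjusted p = 1.9e-06 and 1.48e-10). INTS11, the Integrator endonuclease, rose with both ASOs in both lines by 0.24 to 0.29 (adjusted p = 0.000131 to 0.00259). In SK-N-BE(2)c with ASO2 it gave 0.10 (adjusted p = 0.142) when libraries were scaled to the same total. INTS9, the partner of INTS11, passed the test with ASO2 in NGP (0.28, adjusted p = 0.00715) and with ASO10 in SK-N-BE(2)c (0.24, adjusted p = 0.0145). The latter call was lost without ASO10 replicate 1 (adjusted p = 0.0562) or NCA replicate 3 (0.18, adjusted p = 0.0804).

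INTS13 rose with ASO2 in every line, by 0.27 in IMR32 (adjusted p = 0.000436), 0.49 in NGP (adjusted p = 1.14e-05) and 0.82 in SK-N-BE(2)c (adjusted p = 2.38e-10), and by 0.24 with ASO1 in IMR32 (adjusted p = 0.00122). With ASO10 it gave 0.14 (adjusted p = 0.147) and 0.16 (adjusted p = 0.085). INTS2 rose by 0.46 and 0.58 with ASO2 and by 0.47 and 0.57 with ASO10 (adjusted p = 5.56e-08 to 1.34e-05), and in IMR32 it gave -0.11 and -0.07 (adjusted p = 0.123 and 0.345). INTS10 fell with each ASO: by 0.22 and 0.41 with ASO2 (adjusted p = 0.00403 and 2.3e-06), and by 0.26 and 0.44 with ASO10 (adjusted p = 0.00132 and 9.18e-07). In IMR32 INTS10 fell by 0.20 with ASO1 (adjusted p = 0.00507) and gave -0.11 with ASO2 (adjusted p = 0.0909). The other 8 Integrator genes, INTS9 among them, lay between -0.33 and 0.46 in these lines.

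The change of each of the 43 genes was compared between the 2 lines by an interaction term. The difference was called for 8 genes with ASO10 (18.6%, beside 16.9% of 14537 genes) and for 11 with ASO2 (25.6%, beside 16.7%). Among genes with a mean of 50 or more, the shares over all genes were 21.2% and 21.8%. Among all genes, 8.78% were lower and 8.09% higher in SK-N-BE(2)c relative to NGP with ASO10, and 7.95% and 8.79% with ASO2. With ASO10, CPSF2, CPSF6, PAPOLA, PAPOLG, SSU72, RPRD1A and INTS6 were lower in SK-N-BE(2)c relative to NGP and CPSF7 was higher. The split of 7 lower and 1 higher became 1 lower and 7 higher with TMM scaling, which moved the median difference of all genes from 0.00 to 0.10. CPSF7 (0.28, adjusted p = 0.0035) and RPRD1A (-0.37, adjusted p = 0.00516) were called under all 21 alternatives of this comparison.

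With ASO2, WDR33, CPSF7, PCF11, CLP1, RBBP6, SCAF4 and INTS13 were higher in SK-N-BE(2)c relative to NGP and CPSF4, SCAF8, INTS7 and INTS8 lower. Of these, CPSF7 (0.42, adjusted p = 7.49e-05), PCF11, SCAF4 (0.31, adjusted p = 0.00221), SCAF8 (-0.37, adjusted p = 0.00775) and WDR33 (0.28, adjusted p = 0.00898) were called under all 21 alternatives. Scaled to the same total, the ASO2 split was 6 lower and 4 higher. INTS6 had opposite signs in the lines with ASO10, 0.20 in NGP (adjusted p = 0.0388) and -0.18 in SK-N-BE(2)c (adjusted p = 0.039), and 6 and 7 of 16 alternatives lost these calls.

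**Figure D4:**
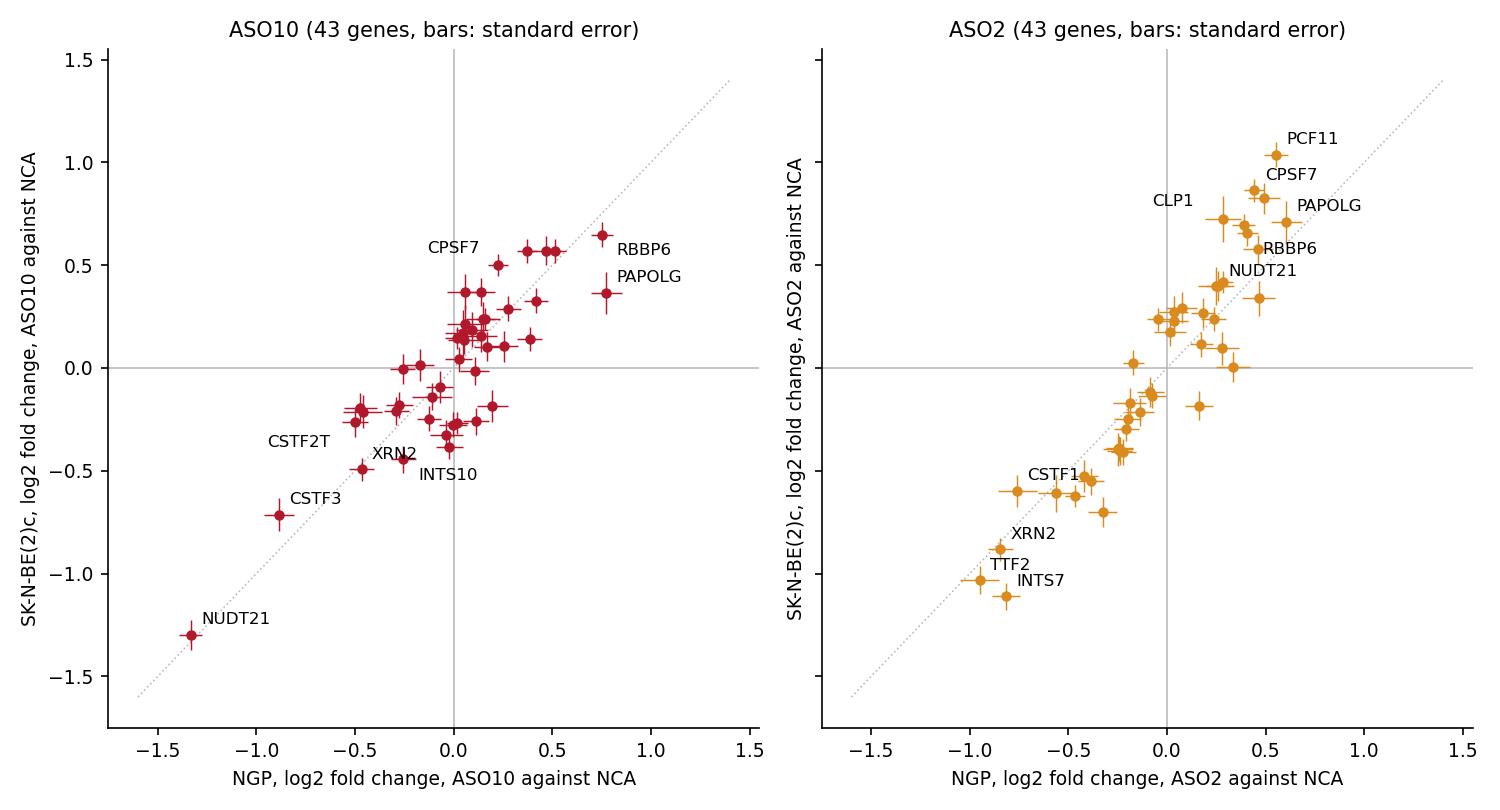
Log2 fold change against NCA in NGP (horizontal) and in SK-N-BE(2)c (vertical) for the 43 genes, with ASO10 on the left and ASO2 on the right; bars are standard errors and the dotted line marks equal change. NUDT21 lies at -1.33 and -1.30 with ASO10, away from the other genes, and at 0.26 and 0.40 with ASO2.

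Control levels of the same genes were compared between NGP and SK-N-BE(2)c. With NCA, 36 of 43 genes were within 2-fold between the lines (74.8% of 12632 genes were), and the median NGP to SK-N-BE(2)c ratio was 1.03, beside 0.995 over all genes. CPSF6 stood apart, with 20527 ± 3256 in NGP against 1872 ± 42.5 for SK-N-BE(2)c (SD, n = 3), a ratio of 11.0 that 0.95% of genes reached. It was singled out after its values were seen. The coding genes around it in the genome also had high ratios: 26.3 for MDM2, 28.3 for YEATS4, 21.4 for FRS2 and 17.3 for SLC35E3. Whether the copy number of this stretch differs between the lines was not analysed here.

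NUDT21 was at 5308 ± 405 in NGP against 2567 ± 65.4 for SK-N-BE(2)c (SD, n = 3), a ratio of 2.07, and its genomic neighbours BBS2, OGFOD1 and GNAO1 gave 2.10, 1.20 and 0.636. Levels of different genes were ranked per kilobase of annotated exon, so the ranks also depend on the annotated lengths. Which library kit each line had is not stated, so ranks are uncertain between lines. NUDT21 stood second of the 43 genes with NCA in NGP (892 per kb) and in SK-N-BE(2)c (431 per kb). In IMR32 it was at rank 34 (95.4 per kb). XRN2 was at rank 1 in IMR32 (860 per kb) and SK-N-BE(2)c (958 per kb) and CPSF6 in NGP (2540 per kb). The lowest of the list per kilobase were INTS5 in IMR32, INTS6 in NGP (25.5 kb of annotated exon) and PAPOLG in SK-N-BE(2)c.

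**Figure D5:**
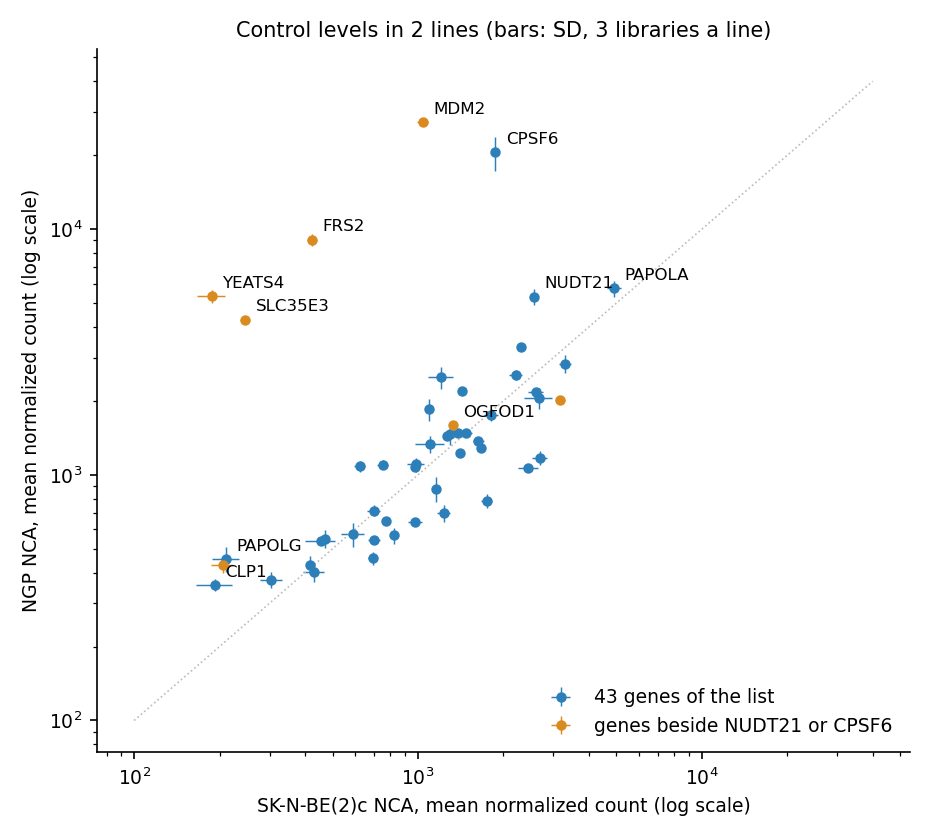
Mean normalized count with NCA in SK-N-BE(2)c (horizontal, log scale) and NGP (vertical, log scale) of the 43 genes (blue) and of genes beside NUDT21 or CPSF6 (orange), with SD bars over 3 libraries a line; the dotted line marks equal levels, and neighbours under a mean of 10 in either line are left out. CPSF6 and its neighbours MDM2, FRS2, YEATS4 and SLC35E3 lie far above the line, and most other genes lie near it.

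A further 58 genes of the same pathway, listed by role, were all measured. With ASO10, 15 were lower (25.9%) and 20 higher (34.5%) in NGP, beside 27.6% and 26.8% of all genes, and 16 lower (27.6%) and 22 higher (37.9%) in SK-N-BE(2)c, beside 31.1% and 27.8%. With ASO2, 17 were lower (29.3%) and 25 higher (43.1%) in NGP, beside 28.1% and 30.6%, and 18 lower (31.0%) and 30 higher (51.7%) in SK-N-BE(2)c, beside 33.4% and 33.6%. In IMR32 5 were lower (8.62%) and 17 higher (29.3%) with ASO1, beside 14.4% and 13.6%, and 4 lower (6.9%) and 23 higher (39.7%) with ASO2, beside 14.8% and 17.6%. Those lower with ASO10 only, by the rule that 6.38% of all genes met, were TENT4A, CNOT7 and SEM1.

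TENT4A, a non-canonical poly(A) polymerase, showed the pattern at the largest size. Its counts with NCA, ASO2 and ASO10 were 1379, 1306 and 1426, then 1332, 1393 and 1418, then 370, 366 and 415 in NGP. In SK-N-BE(2)c they were 1065, 1055 and 1013, then 1200, 1200 and 1139, then 471, 311 and 378. NCA and ASO2 overlapped in NGP, and the ASO10 libraries lay far below both in each line. TENT4A fell with ASO10 by 1.83 in NGP (SE 0.07, adjusted p = 2.15e-16) and 1.45 in SK-N-BE(2)c (SE 0.09, adjusted p = 2.7e-13), and gave 0.01 and 0.18 with ASO2 (adjusted p = 0.894 and 0.0984). In IMR32 it gave 0.08 and 0.07 (adjusted p = 0.195 and 0.253).

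CNOT7, a deadenylase, and SEM1, listed among Integrator partners, fell by 0.15 each in NGP (adjusted p = 0.0401 and 0.0375) and by 0.35 and 0.33 in SK-N-BE(2)c (adjusted p = 4.09e-05 and 0.000188). Both NGP calls were lost in edgeR and DESeq2 (adjusted p = 0.0656 to 0.0955), and under 7 (CNOT7) and 8 (SEM1) of 16 alternatives in all. Without NGP ASO10 replicate 2 they gave -0.10 (adjusted p = 0.222) and -0.11 (adjusted p = 0.174), and TENT4A alone of the 58 met the rule. CNOT7 was also lost without NGP NCA replicate 1 (adjusted p = 0.103) or 3 (adjusted p = 0.116), and SEM1 without ASO10 replicate 1 (adjusted p = 0.051) or NCA replicate 1 (adjusted p = 0.0837) or 2 (adjusted p = 0.107).

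In the other groups of the pathway the gene with the largest change followed its own course. CCNK, the cyclin of CDK12 and CDK13, fell with ASO2 by 1.82 in NGP (adjusted p = 1.57e-15) and 1.94 in SK-N-BE(2)c (adjusted p = 6.61e-18), from means of 983 and 1121 with NCA to 279 and 292. With ASO10 CCNK gave -0.09 and -0.07 (adjusted p = 0.335 and 0.405). ARMC5, which takes part in the turnover of polymerase II, rose with ASO2 by 0.94 and 1.49 and with ASO10 by 0.39 and 0.57. ZNF473, a zinc-finger protein of histone 3′ end processing, rose in all 6 comparisons against NCA by 0.57 to 1.19. ZFC3H1, of the nuclear RNA decay machinery, fell with ASO10 by 0.51 and 1.02 and with ASO2 by 0.36 and 0.64. ZCCHC8, of the exosome targeting complex, rose with ASO10 by 0.73 and 0.85 and with ASO2 by 0.14 and 0.27. Both ASO2 calls were lost when libraries were scaled to the same total (0.07, adjusted p = 0.15, and 0.13, adjusted p = 0.0522). PPP1CC, a catalytic subunit of phosphatase PP1, rose with ASO2 by 0.63 and 0.67 and gave 0.20 and -0.14 with ASO10, the latter call lost under 7 of 16 alternatives. SNRPC of the U1 particle rose with ASO2 in SK-N-BE(2)c by 0.39 (adjusted p = 8.58e-07).

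Exons of 18 of the 43 genes overlap those of another coding gene in the annotation, and 6 of them by more than 10% of their exon length (FIP1L1, INTS12, INTS8, PABPN1, SCAF8 and WDR33). The sources used here do not state whether counting used strand, so values of these genes are uncertain to that extent. NUDT21, TTF2, XRN2, INTS7, PCF11 and the CstF genes other than CSTF3 have no such overlap, and 8.69% of the exon length of CSTF3 overlaps TCP11L1 on the opposite strand. The paralogous pairs CSTF2 and CSTF2T, RPRD1A and RPRD1B, and INTS6 with INTS6L may share reads.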

How the data were processed

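RNA sequencing of 30 libraries in 9 groups was analysed from the gene tables of 3 neuroblastoma lines. Per the labels, libraries were made with a stranded total RNA kit or a stranded mRNA kit, and which one for which library is not stated. The submitters' processing notes name FastQC 0.11.8, cutadapt 1.18, STAR 2.6.0, HTSeq 0.6.1 and DESeq2 1.42.0. The deposited values are a normalized signal, gene counts divided by a size factor for each library. Low values gave the factors, and 100% of values were then whole reads within 0.01 read (0.01 per 1000 reads above 1000), so recovered reads served for count tests as alternatives. No sample column was unused (0). IMR32 also lists 174 entries without a gene identifier (0.172% of its values), which were left out. Symbols were matched for 99.9% of identifiers in IMR32 and 89.8% in the other lines.

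Log2(value + 1) was tested with limma 3.58.1 (R 4.3.3), a mean per group, all 3 groups of a line, moderated variance with a trend, a mean of 10 or more, Benjamini-Hochberg over all genes, calls at adjusted p under 0.05. Fold changes on this scale understate low genes. Differences between NGP and SK-N-BE(2)c were an interaction in 1 fit of both tables. The test was tried on simulated data. Alternatives were pseudocounts of 0.5 and 5, no filter or a mean of at least 50, other scalings, edgeR 4.0.16, DESeq2 1.42.0, a replicate block, 2 groups only, and leaving out each library. Depth was 9393587 to 15060356 reads per library, and the lowest value of a listed gene in any library was 133 (INTS5).

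The members, gene lists and tests were chosen with earlier results of these data known. Genes named in full were those lower with ASO10 in both lines and, per role, the 2 (Integrator 4) with the largest called change against NCA; of the other pathway genes, the 1 with the largest called change per group. Promoter sequences are RefSeq's; GENCODE 29 gave exon lengths, overlaps and gene order only. Python 3.11.15 and pandas 2.3.3 were used.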

Additional observations from a re-analysis of the deposited data

Results flagged for a closer look

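Single libraries stood apart from the rest of their group in 5 of 129 IMR32 groups of 4 libraries, by a gap test that chance alone passes in about 1 of 20 groups. CLP1 was 207.58 in ASO1 replicate 3, beside 189.14 to 191.64 in the others. PAPOLA was 3645.75 in ASO1 replicate 1, beside 3186.68 to 3220.67. ZC3H4 was 1348.51 in NCA replicate 1, beside 1260.44 to 1271.79. INTS13 was 815.91 in ASO2 replicate 4, beside 760.82 to 765.71. INTS14 was 687.17 in ASO1 replicate 1, beside 593.36 to 598.18.

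The log2 fold change against NCA differed between SK-N-BE(2)c and NGP, by the interaction test in limma, for 19 pairs of gene and ASO. The values are SK-N-BE(2)c minus NGP. With ASO10 they were -0.27 for CPSF2, -0.36 for CPSF6, 0.28 for CPSF7, -0.29 for PAPOLA, -0.41 for PAPOLG, -0.25 for SSU72, -0.37 for RPRD1A and -0.38 for INTS6. With ASO2 they were 0.28 for WDR33, -0.34 for CPSF4, 0.42 for CPSF7, 0.49 for PCF11, 0.44 for CLP1, 0.25 for RBBP6, 0.31 for SCAF4, -0.37 for SCAF8, -0.29 for INTS7, -0.33 for INTS8 and 0.33 for INTS13.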

How the results depend on the processing

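NUDT21 met the ASO10 question under all 40 alternatives, and no called change of a gene turned its sign. With no filter on low values, genes of the list higher with ASO1 in IMR32 went from 9 to 5, the ASO10 differences between lines from 7 to 4 lower, and the ASO2 ones from 4 to 1 lower and 7 to 4 higher. The share of all genes called was then 10.1%, 11.9% and 7.54% in IMR32 (ASO1, ASO2, ASO1 against ASO2), 25.6%, 27.9% and 30.1% in NGP (ASO2, ASO10, ASO10 against ASO2), 31.1%, 30.4% and 33.8% in SK-N-BE(2)c in the same order, and 5.61% (ASO10) and 4.94% (ASO2) for the differences between lines. Scaling to the same total gave 7 genes lower with ASO2 in IMR32, 9 higher with ASO1 against ASO2, 12 higher with ASO2 in SK-N-BE(2)c and 4 higher in the ASO2 difference. TMM scaling gave 1 lower and 7 higher in the ASO10 difference. The other pathway genes lower with ASO10 only went from 3 to 1 in edgeR, in DESeq2 and with only the 2 groups compared.

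Leaving out a library gave 5 to 8 genes higher with ASO1 in IMR32 (5 without NCA replicate 4), 2 to 5 higher with ASO1 against ASO2 (5 without ASO1 replicate 1), and 1 to 4 of the other pathway genes (1 without NGP ASO10 replicate 2). The ASO10 difference between lines ranged over 3 to 8 lower (3 without SK-N-BE(2)c ASO10 replicate 2, 4 without its NCA replicate 3) and 1 to 5 higher (5 without NGP NCA replicate 3, 3 without SK-N-BE(2)c ASO10 replicate 1, 2 without NGP ASO10 replicate 3 or NCA replicate 1). The ASO2 difference ranged over 1 to 5 lower (1 without NGP ASO2 replicate 3 or SK-N-BE(2)c NCA replicate 2, and 2 without any of 6 other libraries) and 4 to 7 higher (4 without NGP ASO2 replicate 2, NGP NCA replicate 2, SK-N-BE(2)c ASO2 replicate 2 or 3, or its NCA replicate 1). Fewer libraries are fitted in these settings; for the other settings the cause was not tested.

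Replicate numbers did not pair libraries throughout. Of 30 same-number correlations, from -0.06 to 0.33, 8 were over 0.1, and in 0 of 9 pairs of groups were all of them. Some IMR32 numbers did go together. Replicate 1 gave 0.32 (ASO1 against NCA), 0.26 (ASO2 against NCA) and 0.33 (ASO1 against ASO2), and replicate 3 gave 0.12, 0.11 and 0.16. The cause of these correlations was not tested. A replicate block lost 0 and gained 26 of 387 calls, with 7 genes lower with ASO2 and 7 higher with ASO1 against ASO2 in IMR32.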

Other observations

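RPRD2, a CTD-binding relative of RPRD1A and RPRD1B, moved in opposite directions with the ASOs. It was singled out after its values were seen. In NGP its counts were 2397, 2413 and 2561 with NCA, 1145, 1228 and 1062 with ASO2, and 4317, 4245 and 4049 with ASO10. SK-N-BE(2)c counts were 1708, 1714 and 1678, then 808, 797 and 795, then 3118, 3519 and 3280. The groups did not overlap in either line. RPRD2 fell with ASO2 by 1.10 and 1.09 on the log2 scale (limma, adjusted p = 7.17e-14 and 3.19e-15) and rose with ASO10 by 0.77 and 0.96 (adjusted p = 3.72e-11 and 8.1e-14). In IMR32 it fell by 0.24 with ASO1 (adjusted p = 0.000727) and by 0.16 with ASO2 (adjusted p = 0.0158), the latter lost without ASO2 replicate 4.

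PHF3, which binds the polymerase II CTD, was also singled out after its values were seen. The gene fell with ASO10 by 0.78 (NGP, limma, adjusted p = 8.35e-09) and 0.83 (SK-N-BE(2)c, adjusted p = 4.33e-09). ASO2 gave -0.19 (adjusted p = 0.0475) and -0.17 (adjusted p = 0.0883), and the call in NGP kept it out of the genes lower with ASO10 only. That call was lost without any single NGP ASO2 library, without NCA replicate 1 or 3, with no filter and with TMM scaling. In IMR32, GNAO1, a neighbour of NUDT21 that encodes a G protein subunit, fell by 0.24 with ASO1 and 0.27 with ASO2 (adjusted p = 0.000309 and 7.95e-05).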
